A study of Mus musculus with 9 samples.

Results

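Chromosome 12 was followed gene by gene along its length in 9 clones of mouse embryonic cells, 1 array per clone. A gene was a member when a RefSeq accession of the array design placed it on chromosome 12. Its probe also had to lie well above background, as called by the scanner software, on all 3 arrays of at least 1 ploidy. Of the 609 chromosome 12 genes with a probe, 419 met the rule, or 3.37% of the 12437 named genes measured, and 190 did not. Of the members, 407 code for protein, and 363 lay above background on all 9 arrays. The other 56 did so on fewer arrays, and 30 were kept through a single ploidy (2 through triploid, 10 through tetraploid and 18 through diploid clones).

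The groups were 3 triploid clones, 3 tetraploid clones and 3 diploid clones, which have 3, 4 and 2 chromosome sets by their labels. All 9 are labelled p53-/-, so the diploid clones lack this tumour suppressor too. The cells were untreated and grew in minimal essential medium with fetal bovine serum. The labels give neither an age nor a parent line, and do not say whether the clones came from separate animals or cultures, so spreads and p-values cover these clones alone. Ploidy was taken from the labels, and the arrays measured RNA, so the number of copies of chromosome 12 in a clone was not measured.

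A cell with more chromosome sets carries more copies of every gene, and a cell that gains or loses 1 chromosome changes the dose of all genes on it together. RNA levels of most genes follow their dose at least in part. Such a change shows on an array as a small shift shared along the chromosome, with genes regulated on their own lying to either side. An array centred on its own signal shows such shifts only relative to the rest of the genome. Mouse chromosome 12 carries genes for DNA synthesis such as Rrm2, the kinase Akt1, the microRNA-processing enzyme Dicer1 and the imprinted domain between Dlk1 and Dio3.

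The promoters of 5 members are shown because these genes passed the test in both comparisons with triploid clones. Each runs from 250 bases before to 50 after the start of the RefSeq transcript on GRCm38.p6, read 5′ to 3′ on the gene's strand. Capitals mark the GC box (GGGCGG or its reverse complement CCGCCC), the TATA letters (TATAAA or TTTATA) and the CCAAT box (CCAAT or ATTGG). These motifs share no letters with each other in the 5 sequences.
Fbln5, chr12:101819070-101819369, minus strand: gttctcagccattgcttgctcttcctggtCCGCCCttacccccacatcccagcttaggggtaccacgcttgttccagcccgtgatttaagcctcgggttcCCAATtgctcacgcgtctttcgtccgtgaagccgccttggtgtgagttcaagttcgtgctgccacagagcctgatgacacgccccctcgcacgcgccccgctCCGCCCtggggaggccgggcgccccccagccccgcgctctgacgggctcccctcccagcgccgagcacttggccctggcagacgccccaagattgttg
Coch, chr12:51593091-51593390, plus strand: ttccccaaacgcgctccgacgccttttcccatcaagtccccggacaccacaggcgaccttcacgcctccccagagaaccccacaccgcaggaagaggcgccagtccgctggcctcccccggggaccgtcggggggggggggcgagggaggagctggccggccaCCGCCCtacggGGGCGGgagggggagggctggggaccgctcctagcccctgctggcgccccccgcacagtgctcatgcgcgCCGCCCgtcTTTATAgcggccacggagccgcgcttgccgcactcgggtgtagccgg
Meox2, chr12:37108290-37108589, plus strand: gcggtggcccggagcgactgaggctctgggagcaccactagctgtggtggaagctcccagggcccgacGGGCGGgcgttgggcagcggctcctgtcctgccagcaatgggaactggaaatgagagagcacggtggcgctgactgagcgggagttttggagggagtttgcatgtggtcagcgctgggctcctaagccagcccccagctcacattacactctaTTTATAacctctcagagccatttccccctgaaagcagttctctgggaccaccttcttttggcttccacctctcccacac
Cep128, chr12:91384360-91384659, minus strand: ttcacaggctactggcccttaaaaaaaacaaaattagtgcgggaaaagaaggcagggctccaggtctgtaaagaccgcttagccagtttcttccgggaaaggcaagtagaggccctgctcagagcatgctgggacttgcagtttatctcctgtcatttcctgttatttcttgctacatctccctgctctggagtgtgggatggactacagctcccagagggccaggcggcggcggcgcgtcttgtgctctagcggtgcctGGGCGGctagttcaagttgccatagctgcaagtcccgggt
Syne3, chr12:104998628-104998927, minus strand: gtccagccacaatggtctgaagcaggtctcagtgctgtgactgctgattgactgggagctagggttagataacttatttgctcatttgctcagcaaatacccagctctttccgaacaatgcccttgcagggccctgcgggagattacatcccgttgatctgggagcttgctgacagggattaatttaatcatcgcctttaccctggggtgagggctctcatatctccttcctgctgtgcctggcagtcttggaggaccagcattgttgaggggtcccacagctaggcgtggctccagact
Fbln5, with 2 promoters in the table, is shown by the first listed and holds 2 GC boxes and 1 CCAAT box. Coch holds 3 GC boxes and 1 run of TATA letters, Meox2 1 of each, Cep128 1 GC box, and Syne3 none of the 3 motifs. A GC box stood in 65.1% of the 367 members with a promoter in the table (239 genes), against 67.2% of all 9952 named genes measured and 35.7% of all 32851 promoters. TATA letters stood in 9.54%, 9.61% and 13.6%, and a CCAAT box in 44.4%, 43.0% and 37.4%. The 5 promoters thus differ in these letters, and the members' shares lie close to those of the other genes measured.

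On each array, 44.8% to 50.9% of spots lay well above background, and none were saturated. Triploid clone 1 stood apart from its group over all named genes. Its Pearson's r with triploid clones 2 and 3 was 0.922 and 0.935, against 0.980 between clones 2 and 3, and it reached 0.949 with diploid clone 2. Tetraploid clone 1 also had its highest r with a diploid clone, 0.971 with diploid clone 3. Its r was 0.968 and 0.967 with tetraploid clones 2 and 3. These are descriptions across genes, which are not independent. The Trp53 probe, for the gene of p53, was above background on 1 of 9 arrays, and where it lies relative to the deletion is not stated. Of the marker genes, all 10 for mesenchyme were kept, 1 of 5 for epithelium (Krt18), 0 of 4 for blood, 2 of 4 for endothelium and 1 of 4 for pluripotent cells (Nanog). The median log2 level of the mesenchyme genes lay between 5.52 and 7.10 in triploid, 5.20 and 6.00 in tetraploid and 5.10 and 7.51 in diploid clones. In such bulk cultures, fewer cells of a type and less RNA per cell cannot be told apart. Krt18 lay between -4.97 and -1.57 in triploid, -4.68 and -3.13 in tetraploid and -1.49 and 0.95 in diploid clones, so it was highest in the diploid clones. The part of any of these differences in the results was not tested.

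A level is the log2 processed signal minus the 75th percentile of the array, so 0 is that percentile. A gene's relative shift in a clone is its level minus the mean of the 3 diploid clones, minus the clone's median of the same difference over 11604 named genes on the other 18 autosomes. A relative shift of -1 is thus a halving against the other autosomes. The diploid clones are part of that mean, which draws their own shifts towards 0. The chromosome was chosen with such shifts known, so they are a description and carry no test.

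Genes on chromosome 12 were lower along the whole chromosome in triploid clone 1. Their median relative shift was -0.71, a ratio of 0.611 to the diploid mean after the other autosomes were taken off. Triploid clones 2 and 3 had median relative shifts of -0.31 and -0.12. The tetraploid clones had -0.09, -0.03 and -0.23, and the diploid clones 0.02, 0.01 and -0.02. Triploid clone 1 lay furthest from the diploid clones, triploid clone 2 and tetraploid clone 3 followed, and triploid clone 3 lay within the tetraploid range. Before the other autosomes were taken off, chromosome 12 lay at -0.61 in triploid clone 1, and the other autosomes at 0.10.

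Of the 419 members, 362 (86.4%) lay below 0 in triploid clone 1, 301 (71.8%) in triploid clone 2 and 243 (58.0%) in triploid clone 3. In the tetraploid clones the counts were 259 (61.8%), 212 (50.6%) and 274 (65.4%). They were 193 (46.1%), 199 (47.5%) and 225 (53.7%) in the diploid clones. By construction, 50% of genes on the other autosomes lay below 0 in each clone. Most members lay below 0 in triploid clone 1, and they lay near an even split in tetraploid clone 2.

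Among the 19 autosomes, chromosome 12 had the lowest median in triploid clone 1 and in tetraploid clone 3. In triploid clone 1 the other autosomes ran from -0.26 (chromosome 1) to 0.16 (chromosome 19), so chromosome 12 lay well outside them. In tetraploid clone 3 the next lowest autosome lay at -0.19 (chromosome 4). Chromosome 12 was second lowest in triploid clone 2, after chromosome 7 at -0.55. Over all 171 medians of an autosome in a clone, -0.71 was the furthest from 0, and -0.31 in triploid clone 2 ranked 7th.

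**Figure D1:**
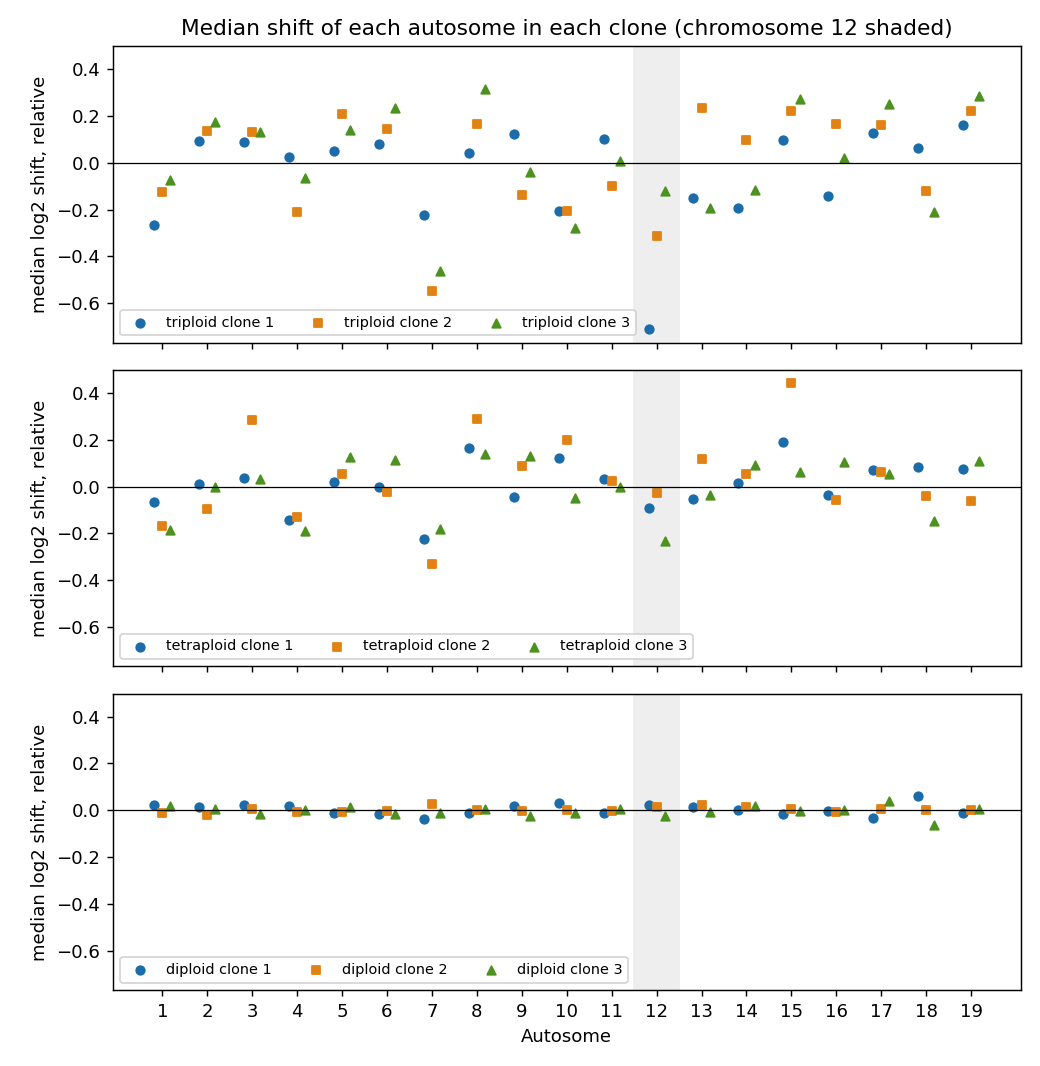
Median relative log2 shift (vertical axis) of each autosome (horizontal axis) in each clone, 1 point per clone, with triploid, tetraploid and diploid clones in panels from top to bottom and chromosome 12 shaded. The point of triploid clone 1 on chromosome 12, at -0.71, is the furthest from 0 of the 171 points.

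Other autosomes moved in other patterns, and chromosome 7 differed from chromosome 12 in which clone was lowest. Its 984 genes had median relative shifts of -0.22, -0.55 and -0.46 in triploid clones 1 to 3 and -0.22, -0.33 and -0.18 in the tetraploid clones. It was thus below 0 in all 6, as chromosome 12 was, but most in triploid clone 2. Chromosome 10 was alike in the 3 triploid clones, with -0.20, -0.20 and -0.28, and had 0.12, 0.20 and -0.05 in the tetraploid clones. Chromosome 15 was above 0 in all 6, with 0.10, 0.22 and 0.27 in the triploid clones and 0.19, 0.44 and 0.06 in the tetraploid clones. These differences between chromosomes were not tested.

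The diploid mean was not needed for the shift of triploid clone 1 to show. Set against the mean of the other 2 triploid clones, its members had a median of -0.44 relative to the other autosomes, and 73.5% lay below 0. The other autosomes ran from -0.29 to 0.29 in this comparison. All 10 consecutive blocks of genes along chromosome 12 lay below 0, between -0.59 and -0.19. Set likewise against the rest of its own ploidy, tetraploid clone 3 had -0.16, with 9 of 10 blocks below 0. Triploid clones 2 and 3 had 0.12 and 0.34, with 1 and 0 blocks below 0, and clone 3 lay above its other autosomes (-0.28 to 0.18). Each of these values includes triploid clone 1 in the mean it was set against. Tetraploid clones 1 and 2 had 0.05 and 0.11, and the diploid clones 0.04, 0.02 and -0.04.

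Along the chromosome, members were placed in RefSeq order and cut into 10 blocks of 42 genes, the last of 41. In triploid clone 1 all 10 block medians lay below 0, from -0.90 in the first block (Rab10os to Nol10) to -0.48 in block 3 (Tspan13 to Nfkbia). Between 78.6% and 95.2% of a block's genes lay below 0. From the second block (Odc1 to Ahr) onward the medians were -0.68, -0.48, -0.76, -0.70, -0.52, -0.73, -0.77, -0.66 and -0.66. No stretch reached the diploid level, and the sixth block (Atp6v1d to Bbof1) was the only other one above -0.60.

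Triploid clone 2 also had all 10 block medians below 0, over a range nearer 0. They ran from -0.43 in the first block to -0.10 in the eighth (Gm5039 to Serpina3b). Triploid clone 3 had 9 below 0, from -0.34 in the ninth block (Serpina3f to Exoc3l4) to 0.07 in the second. At no block did either of them lie as low as triploid clone 1.

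Tetraploid clone 3 had 9 block medians below 0 and its lowest, -0.46, in the fourth (Insm2 to Nin), against 0.06 in the first. Tetraploid clone 1 had 8 below 0, and the fourth was its lowest as well at -0.29. Tetraploid clone 2 had 6 below 0 and ran from -0.20 in the sixth block to 0.17 in block 3. The diploid clones had 2, 4 and 7 below 0, between -0.14 and 0.12. All 3 diploid clones thus stayed closer to 0 at every block than triploid clone 1 did at any. Their closeness is in part by construction, since they are in the mean they were set against. Each set against the other 2 diploid clones, their block medians ran from -0.20 to 0.19.

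In running medians of 31 genes, 100% of the 389 windows lay below 0 in triploid clone 1, between -0.99 and -0.30. The share was 99.0% in triploid clone 2 and 84.8% in triploid clone 3. It was 87.4%, 52.7% and 95.6% in the tetraploid clones and 31.9%, 33.4% and 73.5% in the diploid clones. Windows overlap and are not independent. An all-negative profile was not particular to chromosome 12. Of the 171 autosome profiles, 15 had all 10 blocks below 0, and these include chromosome 12 in triploid clones 1 and 2. The rest were on chromosomes 1, 7, 9, 10 and 18, among them chromosome 7 in triploid clone 2 (-0.62 to -0.45).

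**Figure D2:**
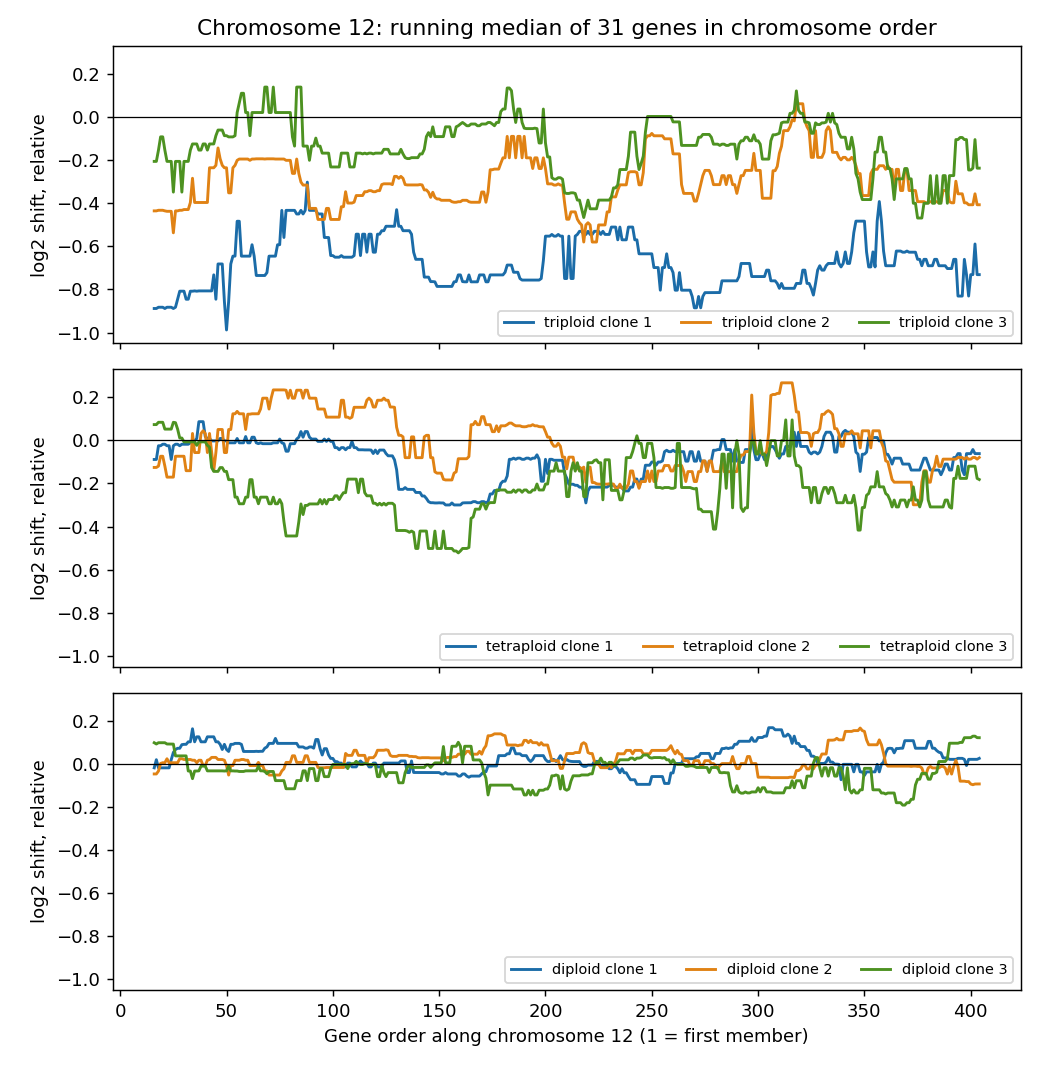
Running median of 31 members of the relative log2 shift (vertical axis) against gene order along chromosome 12 (horizontal axis), 1 line per clone, with triploid, tetraploid and diploid clones in panels from top to bottom. The line of triploid clone 1 stays between -0.99 and -0.30 over all 389 windows. Only complete windows are drawn, so the lines stop short of the first and last genes.

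The shift moved the bulk of the genes and not a tail alone. In triploid clone 1 the quartiles of the members' relative shifts were -1.06 and -0.28, against -0.42 and 0.36 on the other autosomes. The upper quartile on chromosome 12 thus lay below the median of the rest. Below -1 lay 30.1% of members, against 9.20% of other genes, and above 1 lay 1.43%, against 5.10%. Triploid clone 2 had quartiles of -0.69 and 0.04, with 16.7% of members and 13.7% of other genes below -1. Tetraploid clone 3 had quartiles of -0.68 and 0.18.

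**Figure D3:**
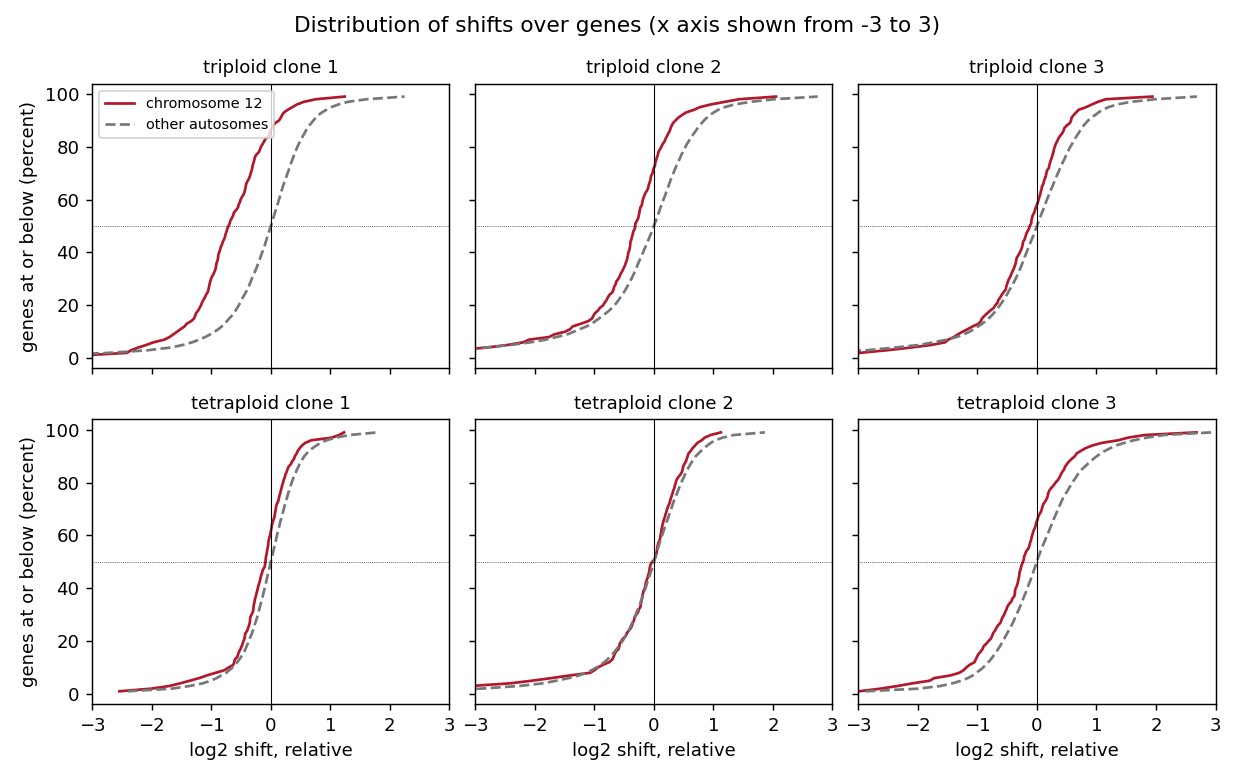
Percent of genes (vertical axis) at or below a relative log2 shift (horizontal axis, shown from -3 to 3) for chromosome 12 (red) and the other autosomes (grey, dashed), with triploid clones in the upper and tetraploid clones in the lower panels. In triploid clone 1 the chromosome 12 curve is displaced to the left along its middle, with medians of -0.71 and 0.

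The shift was present at all signal levels. Members split by mean signal into dim, middle and bright genes (140, 139 and 140) had median relative shifts of -0.76, -0.73 and -0.58 in triploid clone 1, each against other autosomal genes of the same signal range. In triploid clone 2 these were -0.33, -0.27 and -0.36, and in tetraploid clone 3 -0.15, -0.22 and -0.26. The brightest genes of triploid clone 1 were thus nearer 0 than the rest, which was not so in the other 2 clones. Among the 363 members above background on all 9 arrays the median was -0.69 in triploid clone 1, -0.29 in triploid clone 2 and -0.23 in tetraploid clone 3. Members with a GC box in the promoter had -0.79 in triploid clone 1 (239 genes), and those without had -0.58 (128 genes). The same pairs of values were -0.32 and -0.32 in triploid clone 2 and -0.25 and -0.22 in tetraploid clone 3, where they lay close together.

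Probes that the rule had not used were read in the same clones, so they are no independent samples. The 99 members with a further kept probe had 124 such probes. Their median relative shift was -0.71 in triploid clone 1, where 93.5% lay below 0, and -0.37 and -0.07 in triploid clones 2 and 3. It was -0.17, -0.05 and -0.36 in the tetraploid clones and 0.09, 0.01 and -0.06 in the diploid clones. A second set of probes for the same genes thus gave the same order of the triploid clones.

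Transcripts that the design names only by chromosome 12 coordinates, 209 in number and with no gene name here, lay nearer 0. Their median relative shift, against 4057 such transcripts on other autosomes, was -0.21, -0.12 and -0.04 in the triploid clones. It was -0.06, -0.07 and -0.16 in the tetraploid and 0.03, 0.04 and -0.04 in the diploid clones. For the 134 above background on all 9 arrays it was -0.12 in triploid clone 1 and -0.15 in tetraploid clone 3. Their median in triploid clone 1 thus had the same sign as that of the named genes and was smaller, and the difference was not tested.

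**Figure D4:**
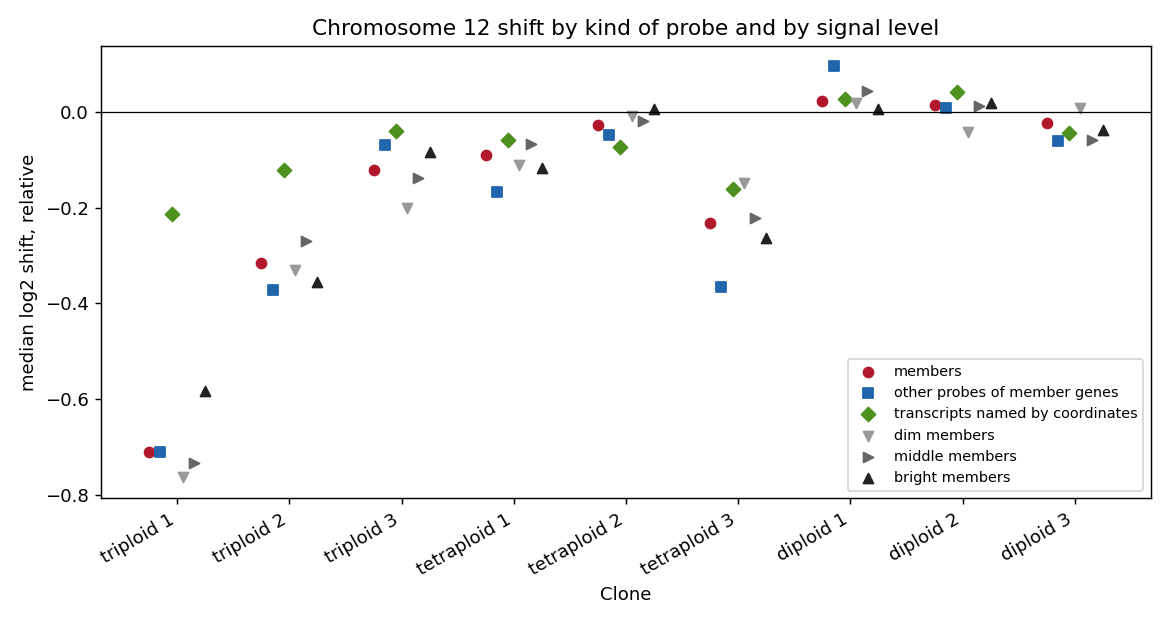
Median relative log2 shift on chromosome 12 (vertical axis) in each clone (horizontal axis), 1 point per kind of probe or range of mean signal. In triploid clone 1 the points lie between -0.76 and -0.58 except for the transcripts named by coordinates at -0.21.

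Averaged over clones, the median relative shift was -0.38 ± 0.30 in triploid, -0.12 ± 0.11 in tetraploid and 0.00 ± 0.03 in diploid clones (SD, n = 3 each). All 3 triploid clones lay below all 3 diploid clones, and the triploid and tetraploid ranges overlapped. Without taking off the other autosomes, triploid clone 3 lay above diploid clone 2, at 0.0043 and -0.0359. The highest tetraploid clone and the lowest diploid clone, at -0.0273 and -0.0238, were not told apart: their order turned with the filter on all 9 arrays (0.0005 and -0.0208) and with quantile normalization (-0.0137 and -0.0398). The triploid minus diploid difference was -0.39, and leaving out triploid clone 1 brought it to -0.22. The triploid minus tetraploid difference was -0.27, and -0.10 on leaving out the same clone. The tetraploid minus diploid difference was -0.12, and -0.06 once tetraploid clone 3 was left out. Diploid clone 1 was hybridised on a slide of its own, and within the other slide triploid minus diploid was -0.37, triploid minus tetraploid -0.26 and tetraploid minus diploid -0.11.

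Single genes of known function show how far a gene could lie from this shift. Of 26 genes listed as landmarks, 23 were members, and 3 were not. Of the 23, 19 had a relative shift below 0 in triploid clone 1, with a median of -0.74. The counts were 14 and 12 in triploid clones 2 and 3, 14, 12 and 17 in the tetraploid clones and 7, 9 and 17 in the diploid clones. The share below 0 was largest in triploid clone 1.

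Akt1, a kinase that passes on growth and survival signals, had levels of 5.15, 5.95 and 6.07 in triploid, 6.41, 6.42 and 6.19 in tetraploid and 6.36, 6.07 and 6.63 in diploid clones. Its relative shift was -1.30, -0.59 and -0.41 in the triploid clones. The triploid and diploid values met at 6.07, and the adjusted p was 0.243 with limma (n = 3 each). Rrm2, the small subunit of ribonucleotide reductase, had levels of 5.54, 6.01 and 6.75 in triploid, 6.58, 7.21 and 6.75 in tetraploid and 6.49, 6.39 and 6.47 in diploid clones. Only triploid clones 1 and 2 lay below the diploid range for it.

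Tgfb3, a secreted growth factor of the TGF-beta family, was low in triploid clone 1 alone. Its levels were 2.70, 5.21 and 5.49 in triploid, 5.33, 4.74 and 4.50 in tetraploid and 5.60, 5.37 and 4.41 in diploid clones. Max, the partner of Myc proteins on DNA, Dync1h1, the heavy chain of the dynein motor, and Dicer1 had relative shifts of -0.85, -0.90 and -0.92 in that clone. In triploid clone 2 they had -0.06, 0.08 and -0.26. A few landmarks lay above 0 in triploid clone 1. Nfkbia, an inhibitor of NF-kappaB, had a relative shift of 0.72 there, and Zfp36l1, a protein that promotes mRNA decay, had 0.86, with 0.93 and 0.66 in triploid clones 2 and 3.

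Grouped by function, members of most lists were lower in triploid clone 1. Of 26 genes for protein and RNA handling, 25 had a relative shift below 0 there, 19 and 15 did in triploid clones 2 and 3, and the median in triploid clone 1 was -0.39. The 22 genes for DNA replication, repair and chromosome handling had a median of -0.52 in triploid clone 1 (19 below 0) and of 0.04 and 0.15 in clones 2 and 3 (9 and 5 below 0). The 16 signalling genes had -1.20 in triploid clone 1 (15 below 0), and the 15 metabolism genes had -0.28 (12 below 0). All members together had -0.71, with 86.4% below 0.

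Of 14 genes for matrix, adhesion and cytoskeleton, 12, 13 and 11 lay below 0 in triploid clones 1 to 3, with medians of -1.17, -1.33 and -0.76. The 23 transcription factors had medians of -0.73, -0.99 and -0.39, and 17, 18 and 14 lay below 0. Of 6 immunity and protease inhibitor genes, 5 lay below 0 in triploid clone 1, and 2 each in clones 2 and 3. The lists were chosen with earlier results known and describe the chromosome; none was tested as a set.

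The imprinted Dlk1 to Dio3 domain, in which genes are expressed from 1 parental copy, varied between clones of the same ploidy. Dlk1, a paternally expressed membrane protein, had levels of 5.21, -3.14 and 1.52 in triploid, 2.83, -0.31 and 0.41 in tetraploid and 3.33, 4.52 and 1.19 in diploid clones. Meg3, a maternally expressed long noncoding RNA, had 2.58, 3.49 and 2.02 in triploid, 3.02, -0.73 and 2.99 in tetraploid and 3.64, 5.52 and 4.97 in diploid clones. Dlk1 was thus lowest in triploid clone 2, and Meg3 in tetraploid clone 2.

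Dio3, an enzyme that inactivates thyroid hormone, had levels of -0.14, -2.23 and -3.23 in triploid, 0.66, 0.33 and 3.32 in tetraploid and -1.61, -1.55 and 1.25 in diploid clones. Mirg, a noncoding RNA of the same domain, had 1.86, 3.14 and 1.52 in triploid, 2.17, -0.98 and 1.56 in tetraploid and 2.24, 3.83 and 3.38 in diploid clones. Like Meg3, Mirg was lowest in tetraploid clone 2. None of the 4 members passed the test in any comparison with limma.

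Gene by gene, the comparison of triploid with diploid clones called 9 members, 1 higher and 8 lower (limma, adjusted p under 0.05). That was 2.15% of members, beside 1.83% of all 21800 features (0.615% higher and 1.22% lower), and nothing is read from this share, since the chromosome was chosen on this contrast. The median log2 difference was -0.21 over members and 0.11 over all named genes. Groups did not overlap for 90 members lower (21.5%) and 11 higher (2.63%) in triploid clones, beside 10.8% and 17.2% of all features. The number of calls varied with the clones included: leaving out triploid clone 1 gave 27, triploid clone 2, diploid clone 1 or diploid clone 3 gave 2, triploid clone 3 gave 3, and tetraploid clone 1 or diploid clone 2 gave 4.

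Fbln5, a matrix protein needed for elastic fibres, had levels of 2.98, 2.63 and 3.25 in triploid, 5.66, 5.12 and 5.87 in tetraploid and 5.63, 5.89 and 5.30 in diploid clones. All 3 triploid clones lay below the other 6, which overlapped. It fell by 2.66 ± 0.28 on the log2 scale against diploid clones (SE, adjusted p = 0.00448) and by 2.60 ± 0.28 against tetraploid clones (adjusted p = 0.00411, limma). Syne3, the nesprin of the outer nuclear membrane that binds plectin, had -0.47, 0.29 and -0.38 in triploid, 1.5, 1.45 and 1.85 in tetraploid and 1.15, 0.95 and 1.31 in diploid clones. It fell by 1.32 ± 0.26 against diploid clones (adjusted p = 0.0449) and by 1.79 ± 0.26 against tetraploid clones (adjusted p = 0.0137, limma).

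Meox2 and Coch were not above background in any triploid clone, so their differences are bounds. Each dark array was set at the lowest signal that its scanner software still called measured. The adjusted p-values, here and for other genes with dark arrays, come from fits to the levels as measured, without that replacement. Meox2, a homeobox factor of the mesoderm, had -5.72, -6.03 and -5.83 in triploid, -2.63, -3.16 and -1.98 in tetraploid and 0.39, 1.00 and -1.92 in diploid clones. It was at least 12.1-fold lower in triploid than in diploid clones (adjusted p = 0.00727, limma). Tetraploid clones lay between the other groups, and their highest value was just under the lowest diploid one.
Coch, a secreted matrix protein known from the inner ear, had -5.52, -5.86 and -5.64 in triploid, 1.19, -1.67 and 4.01 in tetraploid and 2.92, 1.94 and 2.62 in diploid clones. It was at least 76.6-fold lower than in diploid clones, a log2 difference of -6.26 (adjusted p = 0.0133 for the levels as measured, limma). With normexp background correction the log2 difference was -4.45 (adjusted p = 0.043, limma). The tetraploid clones spanned the diploid range, with clone 2 well below it.

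Ahr, a transcription factor activated by dioxin-like ligands, was the member that rose. Its levels were 1.74, 3.36 and 3.05 in triploid, 1.19, 1.06 and 1.96 in tetraploid and 0.64, 0.19 and 0.28 in diploid clones. The log2 difference between triploid and diploid clones was 2.35 ± 0.42 (SE, adjusted p = 0.0357, limma), and triploid and tetraploid ranges overlapped. It stands within a chromosome whose other called members fell.

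Cep128, a protein of the mother centriole, had -3.66, -3.35 and -2.68 in triploid, -1.84, -1.81 and -1.40 in tetraploid and -1.52, -1.22 and -1.49 in diploid clones. It was above background in 2 of 3 triploid clones and fell by 1.81 ± 0.28 against diploid clones (adjusted p = 0.0227, limma). Ttc7b, a part of the complex that holds a lipid kinase at the plasma membrane, had 0.00, -1.55 and -0.81 in triploid, 0.63, 0.66 and 1.28 in tetraploid and 1.37, 0.90 and 1.23 in diploid clones. It fell by 1.96 ± 0.38 (adjusted p = 0.0445, limma). In both genes the 3 triploid clones lay below the other 6. With normexp background correction the log2 difference of Cep128 from diploid clones was -0.77, and it did not pass (adjusted p = 0.056, limma).

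Rhoj, a small GTPase of the Cdc42 family, had 2.11, 1.31 and 2.12 in triploid, 3.09, 2.61 and 3.41 in tetraploid and 3.18, 3.57 and 3.69 in diploid clones. It fell by 1.63 ± 0.31 against diploid clones (adjusted p = 0.0422, limma). Tmed8 had -1.54, -2.39 and -1.05 in triploid, -0.33, -0.69 and -0.32 in tetraploid and 0.12, 0.05 and -0.17 in diploid clones, and fell by 1.66 ± 0.33 (adjusted p = 0.0449, limma). In neither did the triploid and diploid ranges overlap.

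The calls were also made with the chromosome-wide shifts removed. When each clone's median for every chromosome was taken off before the fit, 5 remained: Ahr, Meox2, Coch, Cep128 and Fbln5. Within the slide that held 8 of the arrays, Fbln5 and Meox2 remained. This is the same fit as leaving out diploid clone 1, the only array on the other slide. Fbln5 in both comparisons, and Meox2 against diploid clones, passed in every fit that left out 1 clone. The other calls against diploid clones did not. Coch and Cep128 passed in 5 of 9 such fits, Ahr and Rhoj in 3, Syne3 and Ttc7b in 2 and Tmed8 in 1.

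**Figure D5:**
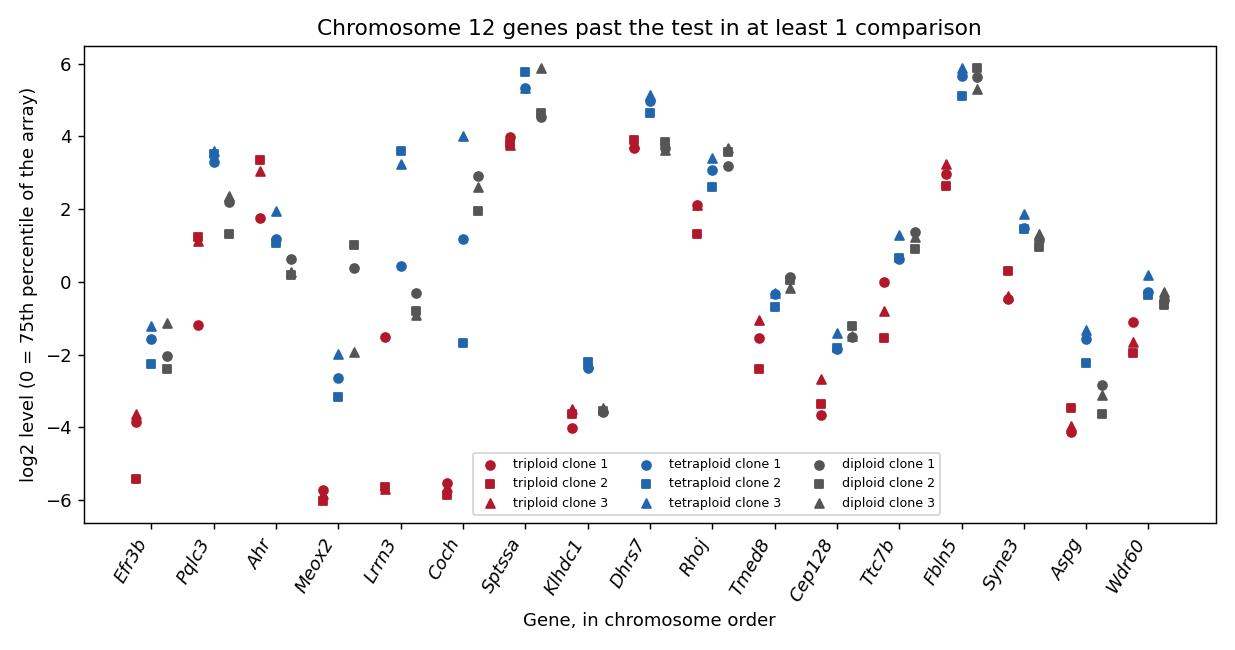
Log2 level (vertical axis, 0 is the 75th percentile of the array) of the 17 members past the test in at least 1 comparison (horizontal axis, in chromosome order), with triploid clones in red, tetraploid clones in blue and diploid clones in grey, 1 point per clone. Fbln5 lies between 2.63 and 3.25 in triploid clones and between 5.12 and 5.89 in the other 6.

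The comparison of triploid with tetraploid clones called 13 members, all lower in triploid clones. That was 3.1% of members, beside 2.70% of all features (1.09% higher and 1.61% lower), and nothing is read from it. Groups did not overlap for 102 members lower (24.3%) and 16 higher (3.82%), beside 11.3% and 14.7% of all features. There were 24 calls without triploid clone 1, 6 without diploid clone 1, and 3 without triploid clone 2, triploid clone 3, tetraploid clone 1 or tetraploid clone 3. Besides Fbln5 and Syne3, Cep128 fell by 1.54 ± 0.28 here (adjusted p = 0.0299, limma). With dark arrays at the lowest measured signal, Coch was at least 30.8-fold and Meox2 at least 2.26-fold lower in triploid clones. The fits to levels as measured gave adjusted p = 0.0193 and 0.0374 (limma). With normexp background correction the log2 difference of Coch was -3.51 (adjusted p = 0.065, limma), against -4.94 with dark arrays at that signal. Meox2 passed in 4 of 9 fits that left out 1 clone, and not with chromosome medians taken off (adjusted p = 0.063, limma).

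Pqlc3 had levels of -1.17, 1.22 and 1.12 in triploid, 3.31, 3.52 and 3.60 in tetraploid and 2.21, 1.31 and 2.36 in diploid clones. It fell by 3.09 ± 0.59 against tetraploid clones (adjusted p = 0.0327, limma), and triploid clone 1 was the lowest of the 9. Pqlc3 passed in 3 of 9 fits that left out 1 clone. Efr3b, a membrane anchor for the same lipid kinase complex as Ttc7b, was dark in all triploid clones and at least 4.18-fold lower there. The fit to levels as measured gave an adjusted p of 0.0370 (limma). Efr3b passed in 4 of 9 fits that left out 1 clone. It did not pass with chromosome medians taken off or with the slide as a block (adjusted p = 0.069 and 0.065, limma). Its levels were -3.85, -5.43 and -3.63 in triploid, -1.57, -2.25 and -1.21 in tetraploid and -2.04, -2.40 and -1.14 in diploid clones.

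Lrrn3, a neuronal membrane protein with leucine-rich repeats, had -1.53, -5.63 and -5.69 in triploid, 0.43, 3.59 and 3.23 in tetraploid and -0.32, -0.81 and -0.91 in diploid clones. Only triploid clone 1 of its group was above background. The fitted difference from tetraploid clones was -6.70 ± 1.14 (SE, adjusted p = 0.0233, limma). With the dark arrays at the lowest measured signal it was -5.45, which was not tested. The tetraploid clones were the high group here, above all 3 diploid clones. Aspg, an asparaginase, had -4.12, -3.46 and -3.95 in triploid, above background in 1 clone, -1.58, -2.23 and -1.33 in tetraploid and -2.84, -3.62 and -3.12 in diploid clones. Its fitted difference from tetraploid clones was -2.13 ± 0.32 (SE, adjusted p = 0.0148, limma), and -0.84 with normexp background correction. With the dark arrays at the lowest measured signal it was -1.91, which was not tested. Triploid and diploid ranges overlapped. Against tetraploid clones, Aspg, Lrrn3, Coch and Syne3 each passed in 6 of 9 fits that left out 1 clone.

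Dhrs7, a dehydrogenase of the short-chain family, had 3.69, 3.90 and 3.79 in triploid, 4.98, 4.63 and 5.15 in tetraploid and 3.67, 3.85 and 3.64 in diploid clones. It fell by 1.13 ± 0.21 against tetraploid clones (adjusted p = 0.0314, limma), while triploid and diploid clones lay at about one level. Klhdc1, Sptssa and Wdr60 complete the 13 and are named after their values were seen. Klhdc1, above background in 2 of 3 triploid clones, was likewise highest in the tetraploid clones, with -4.01, -3.63 and -3.49 in triploid, -2.38, -2.19 and -2.23 in tetraploid and -3.57, -3.55 and -3.46 in diploid clones. Sptssa, a small subunit of the enzyme that starts sphingolipid synthesis, fell by 1.63 ± 0.35, and Wdr60, a chain of the dynein of cilia, by 1.42 ± 0.28 (adjusted p = 0.0461 and 0.0343, limma).

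No member passed the test between tetraploid and diploid clones (0 of 419 with limma, beside 0.0734% of all features, or 16 of 21800). At an unadjusted p under 0.05 there were 42 members, or 10.0%, beside 14.8% of all features. Groups did not overlap for 36 members lower (8.59%) and 41 higher (9.79%) in tetraploid clones, beside 11.1% and 11.0% of all features. The median log2 difference was -0.05 over members and 0.10 over all named genes. Without diploid clone 3, 1 member passed, Meox2.

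At the threshold on signal, the dimmest member was Foxa1, a pioneer transcription factor of endoderm, with a mean level of -4.68. It was above background on 0 triploid, 0 tetraploid and 3 diploid arrays. The brightest gene left out was Serpina9, a serpin, with a mean level of -2.87 and 2, 1 and 2 arrays above background.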

How the data were processed

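RNA of 9 clones was hybridised to 1-colour Agilent arrays. Scanning software was Feature Extraction 10.7.3.1 and the design's build mm9, per the file headers. The deposited intensity values are processed signals, background-subtracted by the scanner software and not normalized between arrays. The software's flags for spots well above background, outliers and saturation are deposited with them. A log2 table, with diploid clone 1 as the reference per the labels, was deposited too. Between arrays it equalled log2 differences of the processed signal after a constant per array, within 0.01 at 100% of probes. Its column medians ran from -0.572 to 0.377, and it served as an alternative.

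Spots of a probe were averaged as log2 values, from which the array's 75th percentile (215 to 407 in signal) was subtracted. Of 55681 probes, 83 were dropped for outlier flags, and 26373 had a symbol through RefSeq accessions (GRCm38.p6, used for names, chromosome and gene order; promoters are from RefSeq on the same assembly). The brightest kept probe stood for a gene. limma 3.58.1 (R 4.3.3) fitted 1 mean per ploidy over 21800 features, with Benjamini-Hochberg adjustment. The models were tested on simulated data. The files hold no mean pixel signal, so normexp (offset 50) ran on median signals.

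The number of arrays limits the precision. Free-text descriptions of all clones but diploid clone 1 carry rising numbers in the place of p53; the genotype field was used. Members and gene lists were chosen with earlier results of these data known. Named genes were, per comparison and direction, up to 8 called members with the largest differences and no overlap, the landmark genes, called members of 8 lists (180 genes), block ends and the genes at the signal threshold. Alternatives covered background correction, scaling, probe choice, filter, slide, clone number and each clone left out.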

Additional observations from a re-analysis of the deposited data

How the results depend on the processing

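The ploidy differences of the chromosome 12 shift kept their sign under all settings and with each clone left out. Some of these could not change them. Scaling to probes detected on all arrays and the deposited table move each array by a constant, which cancels in the relative shift. Leaving out a tetraploid clone cannot change triploid minus diploid, nor a triploid clone tetraploid minus diploid. With a clone left out, triploid minus diploid ran from -0.52 to -0.22, tetraploid minus diploid from -0.17 to -0.06 and triploid minus tetraploid from -0.40 to -0.10. With normexp the first was -0.27 and the last -0.16. With no filter on dim probes, triploid minus diploid was -0.26 and tetraploid minus diploid -0.08. Without taking off the other autosomes, tetraploid minus diploid was -0.03. The median shift of triploid clone 1 ran from -0.72 to -0.48 under other settings, -0.48 being with normexp. Tetraploid clone 3 lay at -0.09 with no filter on dim probes. Without taking off the other autosomes, triploid clone 3 lay at 0.00, tetraploid clones 1 and 2 at 0.03 and 0.16, and diploid clones 2 and 3 at -0.04 and 0.04.

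Counts of called members moved more. Between triploid and diploid clones, 9 were called, and 18 when arrays were scaled to probes detected on all arrays, 14 with quantile normalization, 3 with no filter, 2 with the slide as a block, 5 with chromosome medians taken off, and 2 to 27 with a clone left out. Between triploid and tetraploid clones, 13 were called, and 6 with no filter, 8 with the filter on all 9 arrays, 6 with the slide as a block, 8 with chromosome medians taken off, and 3 to 24 with a clone left out. Between tetraploid and diploid clones the count was 0, and 0 to 1 with a clone left out. The slide as a block gave the same fit as leaving out diploid clone 1, so it is no further check. Stricter filters change the number of genes tested, and leaving out a clone the number of samples; the cause of the other changes was not tested. The main fit did not pair clones by number, and whether same-numbered clones form pairs could not be decided. Deviations of same-numbered clones from their group means correlated weakly, at -0.13 to 0.09, yet 7 of 9 clones correlated best with their own number. With clone number as a block, 5 members were called between triploid and diploid clones and 11 between triploid and tetraploid clones.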
